A study of Rattus norvegicus with 6 samples.

Results

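Klotho (Kl) was followed as 1 gene of the 21986 listed in a table of kidney RNA levels from 6 male Wistar rat samples, 3 control and 3 from a model of focal segmental glomerulosclerosis (FSGS), in which some of the glomeruli, the filters of the kidney, become scarred in part. The gene was taken by its Ensembl identifier, ENSRNOG00000001092, and not by its level. The deposited table carries no symbols, so that this identifier stands for Kl was taken as given and checked by chromosome alone: the table places this identifier on chromosome 12, and the RefSeq table (assembly GRCr8) lists Kl on chromosome 12 as well. No coordinates are given here, because the sources used here do not name the genome build behind the deposited values.

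All animals were wild-type. Groups were taken from the word control or FSGS in the sample titles; the titles also call every sample untreated, which conflicts with the injections in the treatment field. The FSGS animals had the left kidney removed and were then injected through the tail vein with adriamycin, an anthracycline toxic to the cells of the filter, first at 5 mg/kg, 7 days after surgery, and then at 3 mg/kg, 28 days after surgery, per the series' design text. The control animals received saline and are not described as operated, which means that nephrectomy and drug cannot be told apart. The sources used here do not state the animals' age or the time between the last injection and sampling. Whether each library comes from its own animal is not stated in the labels. The p-values therefore refer to the spread among these libraries, part of which may be technical.

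Klotho is a single-pass membrane protein of the distal tubule, with lower levels in the proximal tubule. Together with an FGF receptor it forms the receptor for FGF23, the bone hormone that makes the kidney excrete phosphate and lowers its production of active vitamin D. Its outer part can be shed from the cell surface and circulates as soluble Klotho, and loss of renal Klotho is a well-known feature of chronic kidney disease. The comparison asks whether Kl RNA was lower in FSGS kidneys than in control kidneys.

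A fall of Kl was not found in these libraries. Levels are in FPKM, which scale the fragments of a gene by its length and by the mapped fragments of the library. Kl was measured at 11.27, 5.27 and 4.62 FPKM in controls 1, 2 and 3, and at 6.99, 7.02 and 3.21 FPKM in FSGS 1, 2 and 3. The groups overlapped: control 1 was the highest library and FSGS 3 the lowest, while FSGS 1 and FSGS 2 lay above controls 2 and 3. The group means were 7.05 ± 3.67 FPKM in controls and 5.74 ± 2.19 FPKM in FSGS (SD, n = 3 each), a ratio of 0.814. This difference was smaller than the SD of either group (two-sided exact permutation p = 0.8; the smallest p that 3 against 3 allows is 0.1). In bulk tissue, fewer Klotho-bearing tubule cells and less Kl RNA per cell cannot be told apart.

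**Figure D1:**
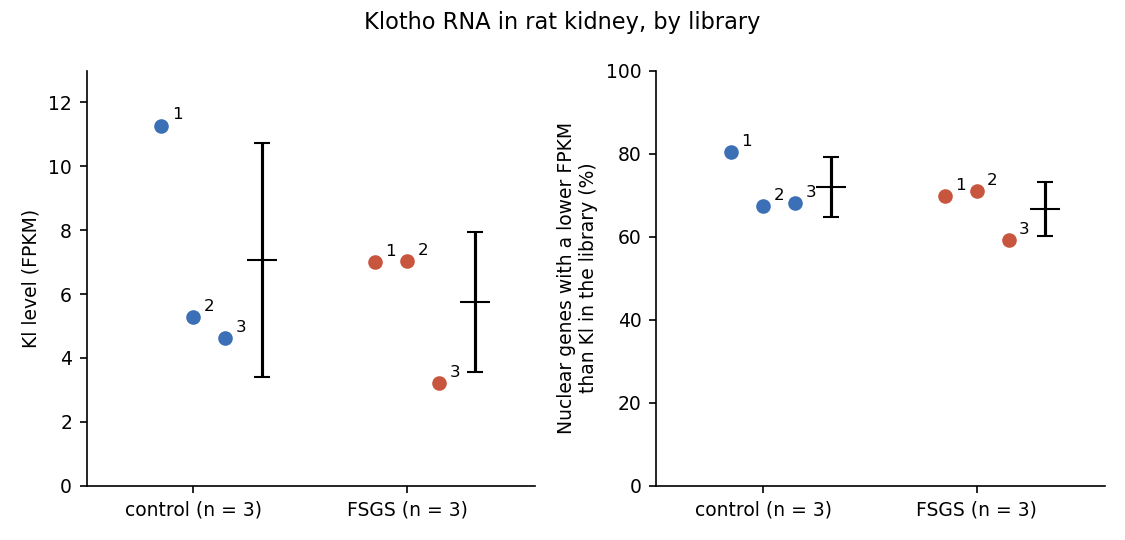
Kl in each of the 6 libraries, as FPKM (left) and as the percentage of nuclear genes with a lower FPKM in the same library (right). Numbered points are replicates and the black mark is the mean with its SD (n = 3). The control points run from 4.62 to 11.27 FPKM and the FSGS points from 3.21 to 7.02 FPKM, so the groups overlap.

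The transcriptome around Kl differed widely between the groups. On the scale log2(FPKM + 1), a test across all genes with a mean of at least 0.5 FPKM called 6222 of 14139 genes at limma adjusted p under 0.05 (44.0%), 3814 rising (27.0%) and 2408 falling (17.0%). The balance moved with the scaling: 61.3% of the called genes rose as deposited, 49.8% with median-of-ratios scaling, 38.7% after rescaling to TPM and 71.2% after leaving the mitochondrial and the 100 most abundant genes out of the library total. Kl was not called in any of these fits. As deposited, its change was -0.23 ± 0.34 (SE) on the log2 scale, FSGS minus control, with a limma adjusted p of 0.616 and an unadjusted limma p of 0.519. The 95% interval ran from -0.99 to 0.54, that is, from a ratio of 0.502 to a ratio of 1.45 on the scale with the pseudocount. A missed threshold does not show that the level was the same: at the standard error of Kl, a log2 change of 0.94 in either direction was needed for a call in this fit, which is a ratio of 0.522 for a fall.

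Genes of similar abundance were called about as often as genes in general. Among 2801 genes with a mean between 5 and 10 FPKM, the class that holds Kl at 6.40 FPKM over the 6 libraries, 1177 were called (42.0%), 809 rising (28.9%) and 368 falling (13.1%). Groups did not overlap in 1546 of these 2801 genes (55.2%) and in 7865 of all 14139 genes tested (55.6%), while those of Kl did. On chromosome 12, 223 of 494 genes tested were called (45.1%), 145 rising (29.4%) and 78 falling (15.8%). The median log2 change was 0.11 over all genes, 0.16 over the abundance class and 0.13 over chromosome 12, so the change of Kl lay 0.34 below the median of all genes. That gap rested on single libraries: Kl stood at -0.028 from the median of all genes without control 1 and at -0.064 without FSGS 3. Without any other single library it stood at -0.50 to -0.45. Of all genes tested, 27.3% had a lower log2 change than Kl, and 32.1% had a change of smaller size.

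The spread of Kl between replicates was wide. Its SD within groups was 0.57 on the log2(FPKM + 1) scale, against a median of 0.19 over all genes tested and 0.18 over the abundance class. That was a larger SD than in 97.5% of all genes tested and 98.3% of the class. Within controls, replicate 1 held 2.28 times the mean FPKM of replicates 2 and 3. As log2(FPKM + 1), a different measure, control 1 stood 1.05 above the mean of the log values of controls 2 and 3. The median gene had an excess of 0.10 there, and 99.8% of genes had a smaller one than Kl. Within FSGS, the mean FPKM of replicates 1 and 2 was 2.18 times that of replicate 3. As log2(FPKM + 1), FSGS 3 stood at -0.93 from the mean of the log values of the others. The median gene stood at -0.15 there, and 2.07% of genes had a lower value than Kl. Control 1 and FSGS 3 are the extreme libraries of Kl itself, and every other gene was scored in the same libraries. An extreme place for Kl is partly built into that choice, so these shares are a description.

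**Figure D2:**
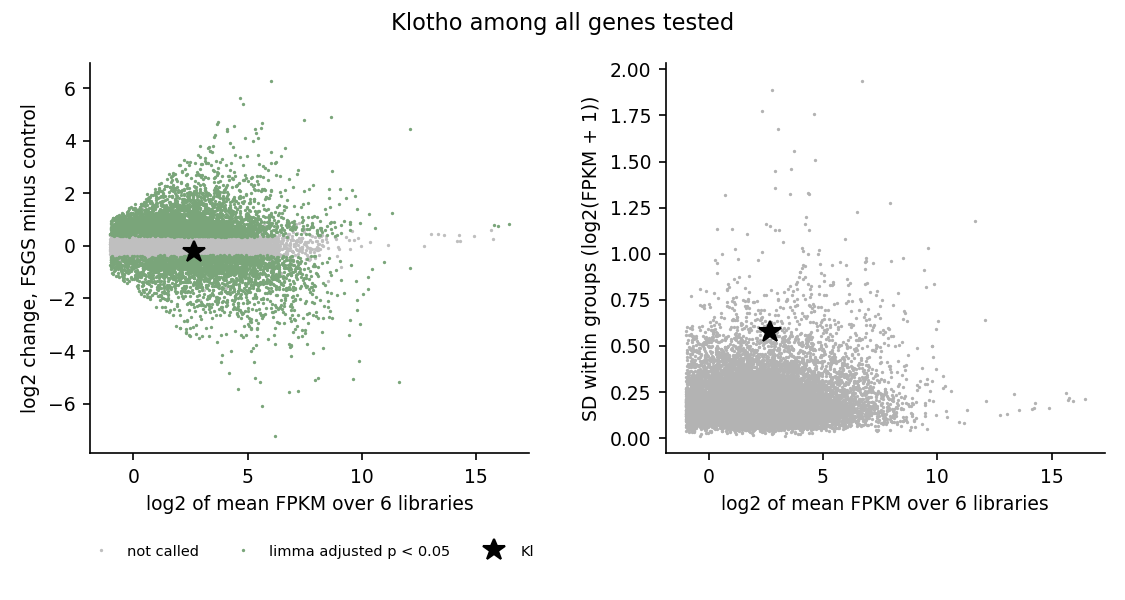
The left panel plots the log2 change (FSGS minus control) and the right panel the SD within groups on the log2(FPKM + 1) scale against the log2 of mean FPKM, with 1 point for each of the 14139 genes tested and Kl as a star. Kl lies in the grey band of genes not called, at -0.23, and among the genes with the larger SDs, at 0.57.

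Single libraries set the direction of the Kl difference on the log2 scale. Without control 1 the log2 change was 0.12 ± 0.29 (SE; limma adjusted p = 0.764), and without FSGS 3 it was 0.08 ± 0.31 (limma adjusted p = 0.854). Leaving out any of the other 4 libraries gave changes of -0.44 to -0.36. In mean FPKM the difference was above 0 without control 1 (0.795 FPKM, FSGS minus control) and close to 0 without FSGS 3 (-0.048 FPKM). The mean rank of Kl among nuclear genes, described next, stayed lower in abundance in FSGS in each omission, by 248 places without control 1 and by 356 without FSGS 3. None of these rank differences stood out from the spread (two-sided exact permutation p of 0.5 or more in each omission).

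**Figure D3:**
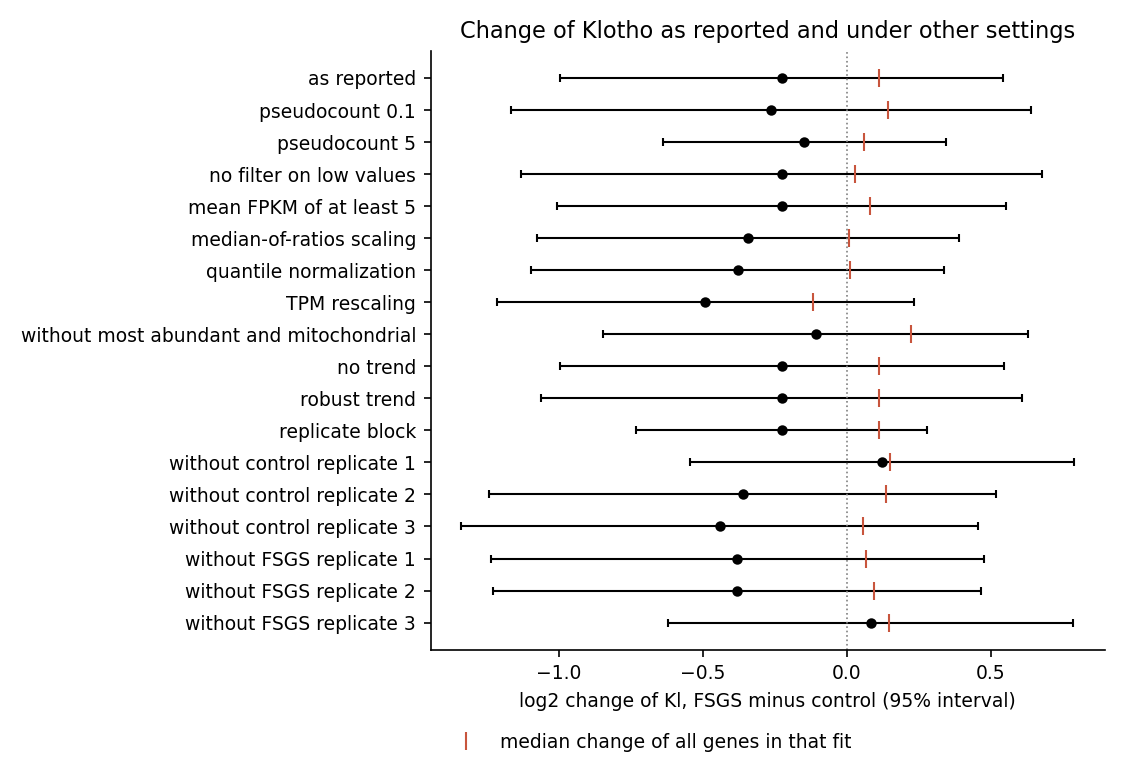
Log2 change of Kl (FSGS minus control, dots) with its 95% interval from limma, as reported and under 17 alternatives; the red mark is the median change of all genes in the same fit. Every interval drawn contains 0, and the dot lies above 0 in the fits without control replicate 1 and without FSGS replicate 3.

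An FPKM depends on the other transcripts of its library. Mitochondrially encoded transcripts held a larger part of the summed FPKM in each FSGS library than in any control library. These values are scaled by gene length, so this part is not a share of fragments. In controls 1, 2 and 3 their part of the summed FPKM was 51.6%, 55.0% and 62.9%. In FSGS 1, 2 and 3 it was 64.0%, 68.4% and 71.7%. In each group the library with the largest mitochondrial share had the lowest Kl level in FPKM. Between groups the order differed: FSGS 1 and FSGS 2 had larger shares than any control, and higher Kl levels (6.99 and 7.02 FPKM) than controls 2 and 3 (5.27 and 4.62 FPKM). Because an FPKM depends on the rest of its library, Kl was also placed by its rank within each library among 21949 nuclear genes, which no scaling of a column can move. Its rank, counted from the most abundant gene, was 4306 in control 1, 7155 in control 2 and 6985 in control 3. In the FSGS libraries it was 6652 in replicate 1, 6357 in replicate 2 and 8944 in replicate 3. Kl thus stood above 80.4%, 67.4% and 68.1% of nuclear genes in the controls, and above 69.7%, 71.0% and 59.2% in FSGS. The ranks overlapped in the same way as the levels (two-sided exact permutation p = 0.6). By rank the lowest control was control 2, whereas in FPKM it was control 3.

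Other scalings left the order of the extreme libraries in place. When each column was rescaled by the sum of its genes other than the mitochondrial ones and the 100 most abundant, Kl stood at 10.2, 4.84 and 4.84 in controls 1, 2 and 3. The FSGS values on that scale were 6.84, 7.33 and 3.68 in replicates 1, 2 and 3. The gap between the group means then narrowed to a ratio of 0.898, from 0.814 as deposited (two-sided exact permutation p = 0.8). It widened under the other scalings. The ratio was 0.742 with median-of-ratios scaling and 0.723 with quantile normalization (two-sided exact permutation p = 0.6 for each). After rescaling to TPM, in which every column sums to the same total and the mitochondrial share weighs fully, the control values were 18.4, 8.20 and 6.68, and the FSGS values were 9.26, 8.81 and 3.89. That gave the lowest ratio of group means among the scalings tried, 0.661, and the groups still overlapped (two-sided exact permutation p = 0.6). Control 1 was the highest and FSGS 3 the lowest library as deposited and under each of the other 4 scalings, of which 1 leaves the mitochondrial genes out of the total. The part of the mitochondrial share in these levels was not tested.

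**Figure D4:**
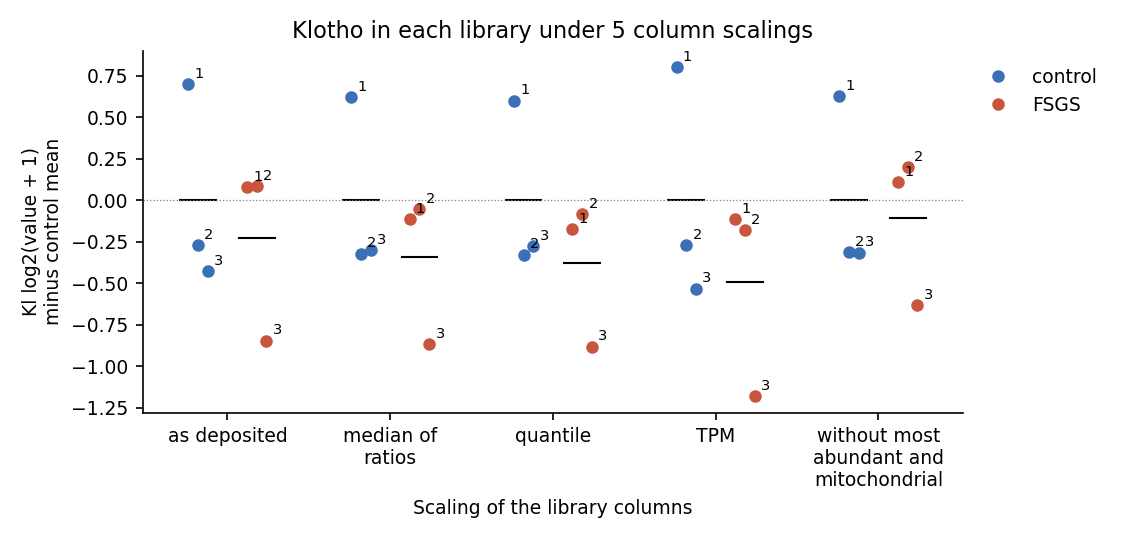
Kl in each library (numbered replicates) as log2(value + 1) minus the control mean, as deposited and under 4 other scalings of the columns; black bars are group means. Control 1 is the highest and FSGS 3 the lowest library under each of the 5, and the groups overlap in each.

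The genes whose profile over the 6 libraries was nearest to that of Kl varied between replicates in the same way. Likeness was the root mean square distance between log2(FPKM + 1) values, each gene taken relative to its control mean, over 7645 other genes with a mean of at least 5 FPKM; the median distance was 0.56. ENSRNOG00000007990 on chromosome 4 was nearest, at a distance of 0.16 (Pearson r = 0.997 over the 6 libraries, a description). It stood at 11.08, 6.75 and 5.94 FPKM in controls 1, 2 and 3, and at 8.19, 8.36 and 4.90 FPKM in FSGS 1, 2 and 3. ENSRNOG00000019118 on chromosome 3 followed at a distance of 0.20 (Pearson r = 0.952 over the same libraries). It was more abundant, with control levels of 99.13, 66.23 and 67.69 FPKM and FSGS levels of 84.12, 89.45 and 47.46 FPKM. Both had their highest level in control 1 and their lowest in FSGS 3, which is what the choice of near profiles selects for. Their log2 changes were -0.12 ± 0.25 and -0.10 ± 0.26 (SE), and neither was called (limma adjusted p = 0.725 and 0.770).

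**Figure D5:**
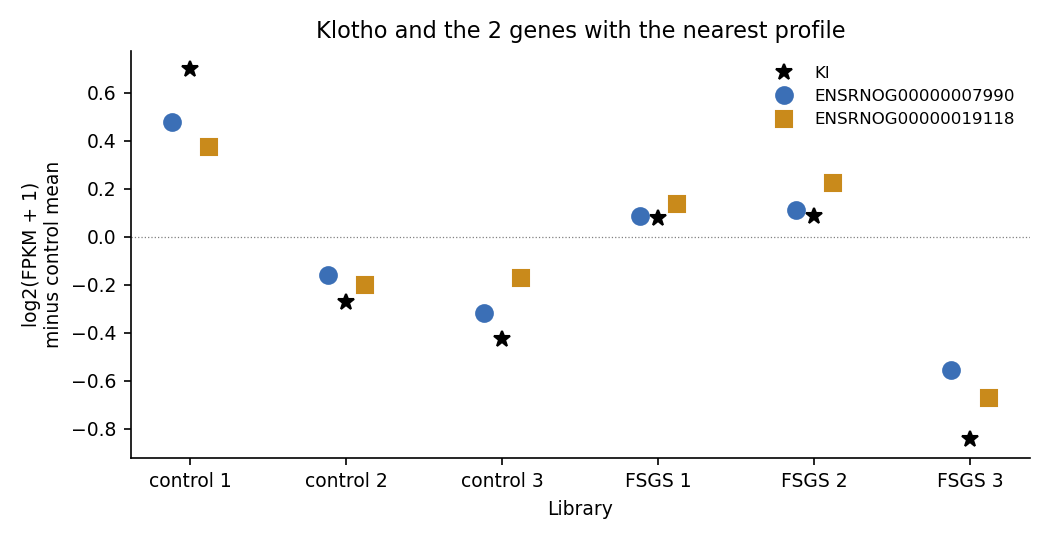
Log2(FPKM + 1) minus the control mean for Kl (star) and the 2 genes with the nearest profile, in each of the 6 libraries. All 3 genes are highest in control 1 and lowest in FSGS 3, and Kl has the widest range.

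The other genes of the FGF23 and Klotho axis were not analysed here. These are the hormone and its receptors, the proteases that shed Klotho, the phosphate carriers and vitamin D enzymes it acts on, the calcium transport genes of the distal tubule, and the markers of nephron segments. The table does not pair identifiers with names, and the RefSeq table carried an Ensembl identifier in 0 of its 47357 rows. For the same reason the labelled tissue could not be checked against kidney markers, and the share of distal tubule in each library is not known here, including in control 1 and FSGS 3. The library kit marks strand, but the sources used here do not state whether the counting used strand, so reads of any antisense transcript at Kl cannot be told apart.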

How the data were processed

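Kidney RNA of 3 control and 3 FSGS samples was sequenced after poly(A) selection as strand-marked paired ends, per the labels' protocols. Tools listed in the submitters' processing notes, with no role stated, are HISAT2 2.2.1, StringTie 2.1.6, cutadapt 1.9, edgeR and DESeq2; the sources used here do not name the build or annotation. The authors deposited FPKM with at most 2 decimals. Depth is unknown. Between library pairs, at most 12.8% of log2 ratios fell in any window of 0.05. The genes used were undetected in at least 2 of the 6 libraries. Their values were at least 0.3 FPKM in both libraries of the pair, with no upper limit, and there were 16 to 136 genes per pair. No reference value was set for this share, so it cannot decide whether whole reads could be told from the values. No whole reads were recovered, and no counting intervals are given.

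Genes with a mean of at least 0.5 FPKM were tested as log2(FPKM + 1) with limma 3.58.1 (R 4.3.3), group alone and a mean-variance trend, Benjamini-Hochberg adjusted over all genes tested at 0.05. A fold change on this scale understates that of low genes. The procedure was tested on simulated data. For single values the test was an exact permutation test, two-sided. Named genes were Kl and the 2 nearest in profile by the distance given above. The gene, the lists and the settings were chosen with earlier results of these data known. Figures used matplotlib 3.10.9.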

Additional observations from a re-analysis of the deposited data

How the results depend on the processing

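Kl was not called in any of the 17 alternatives, with limma adjusted p from 0.279 (TPM rescaling) to 0.854 (without FSGS 3); its log2 change was below 0 in 15 of them. Leaving out single libraries gave log2 changes of -0.44 to 0.12, above 0 without control 1 (0.12) and without FSGS 3 (0.08). The difference in mean FPKM then ran from -2.53 to 0.795, above 0 without control 1 alone (exact permutation p = 0.6 to 1). On the log2 scale the 6 libraries gave an exact permutation p of 0.6. Kl ranked lower in abundance in FSGS by 1169 places on average, and by 248 to 1672 without single libraries. The two-sided exact permutation p for the rank was 0.6 with all libraries and 0.5 or more in each omission.

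With a mean of at least 5 FPKM required, 3672 genes were called among Kl and the 7645 other genes tested, instead of 6222 of 14139. Fewer genes were tested, so the lower count is not a lower share. Leaving out single libraries gave changes of -0.28 to 0.12 for ENSRNOG00000007990 and -0.27 to 0.18 for ENSRNOG00000019118, which turned above 0 without control 1 or FSGS 3. They did so too after rescaling without the abundant genes (0.0057 and 0.037), as did the second with quantile normalization (0.20). The cause was not tested.

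In the fit with a replicate block, the Kl change was -0.23 ± 0.20 (SE; limma adjusted p = 0.388), with 6900 genes called. Libraries sharing a number deviated together at correlations of 0.13, 0.03 and 0.02 across genes, so the numbers were not taken as pairs. Depth, and so its limit at the level of Kl, is unknown.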
